A study of Mus musculus with 8 samples.

Results

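The barcodes described here are the cells of a freshly sorted T cell culture in which mitochondrially encoded RNA made up 15% or more of the RNA counted. They were chosen by the measured share of the 13 mt- genes, 15% or more of a barcode's gene UMIs (unique molecular identifiers, 1 per captured RNA molecule), in the single library sequenced directly after culture (d0). Each also had 500 genes or more and a top hashtag with 10 UMIs or more that outnumbered the next hashtag 3 to 1 or better. Of the 6508 barcodes of that library 197 reached 15%; 29 of these had under 500 genes, a further 10 had no hashtag call, and 158 remained, among 18092 barcodes in the whole series. The comparison was with the 5610 barcodes of the same library that passed the same gene and hashtag limits and lay below 15%. The mt- genes chose the barcodes, so their levels are given below as a description, and they were left out of every total and every test of other genes. The nearest barcodes on either side of the threshold held 15.014%, 15.105% and 15.1108% inside it, and 14.997%, 14.9459% and 14.936% outside it.

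The study asked how mitochondria passed from bone marrow stromal cells (BMSCs) to T cells bear on T cell differentiation and function. Activated CD8+ T cells of 3 donor mice were grown together with BMSCs whose mitochondria carried a stable dsRed label. Sorting then gave MitoPositive T cells, with dsRed, and MitoNegative T cells, without it, from each donor; all of them, MitoNegative cells included, had been activated and had shared a culture with the stromal cells, and no T cells cultured without BMSCs were used here. Part of the sorted cells was sequenced at once (d0), and part was moved into B6 mice bearing B16KVP tumors and taken back from spleen and tumor at d7. The strain, age and genotype of the donor mice are not given in the sources used here, and the labels call the tissue of the d0 library spleen and its treatment in_vitro. The 158 barcodes comprised 118 MitoPositive barcodes (36, 44 and 38 from donors 1, 2 and 3) and 40 MitoNegative barcodes (15, 10 and 15).

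The mitochondrial genome of the mouse encodes subunits of the respiratory chain and of ATP synthase, and its messages are transcribed and translated inside the organelle, whereas the other subunits and all mitochondrial ribosomal proteins come from nuclear genes and are imported. In droplet data a high share of mitochondrial RNA is widely used to set aside barcodes as damaged or dying cells, since the organelle can be retained when cytosolic RNA is lost, although cells rich in mitochondria or highly active can also reach a high share. The poly(A) capture used here counts the polyadenylated mitochondrial messages along with nuclear ones.

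Each barcode was tied to its arm and donor by an antibody-borne hashtag oligonucleotide. The 6 hashtags are shown because every share and every comparison of arms below rests on reading them apart. Each had 15 bases and differed from the nearest of the others at 8 to 11 positions.
H1, MitoPositive donor 1: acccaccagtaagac
H3, MitoPositive donor 2: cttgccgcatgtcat
H5, MitoPositive donor 3: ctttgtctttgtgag
H2, MitoNegative donor 1: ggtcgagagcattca
H4, MitoNegative donor 2: aaagcattcttcacg
H6, MitoNegative donor 3: tatgctgccacggta
The series design and the deposited hashtag list give odd hashtags to MitoPositive cells, but the extraction protocol in the labels gives hashtags 1 to 3 to them. The odd and even map was used, and comparisons of the arms are also given under the other one.

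The d0 library held 54474659 gene UMIs, and its median barcode had 7400.5 gene UMIs, of which 2.41% came from mt- genes. None of the 158 barcodes had a barcode sequence that also occurred in a d7 library, whereas 17 of all d0 barcodes did. No doublet caller was run; pairs of cells with different hashtags were removed by the limit on the next hashtag, and pairs with the same hashtag were not. The label CD8 T cells was checked against markers. At least 1 UMI of Cd3d, Cd3e or Cd3g, parts of the T cell receptor complex, was found in 138 of the 158 barcodes (87.3%) and in 98.0% of barcodes below 15%, which were far deeper. After thinning each barcode to 500 UMIs without mt- genes, for which none had to be left out, the share was 67.0% ± 10.7 at 15% or more against 74.7% ± 2.65 below it (SD over 6 hashtagged samples, n = 6), and for Cd8a or Cd8b1 it was 39.1% ± 11.0 against 59.3% ± 5.47. In barcodes below 15% matched to the 158 in UMIs outside mt- genes and thinned alike, these shares were 60.2% ± 5.65 and 43.2% ± 15.04. Shares lower than in all barcodes below 15% were thus not particular to barcodes at 15% or more. The library was sorted as T cells and offers no other cell type from which to read a background share. Of 20 markers of bone marrow stromal cells 2 had any UMI in the 158 barcodes, with a summed level of 0 to 28.1 CPM by sample (counts per 1000000 UMIs outside mt- genes, the unit used for gene levels throughout) against 2.60 to 5.82 below 15%, and the 10 defining stromal markers, such as Col1a1, Cxcl12 and Lepr, had 0 UMIs, which allows up to 12.8 CPM. Of 6 B cell markers 2 were seen (0 to 209 CPM by sample against 138 to 251), of 10 myeloid markers 1 (0 to 262 against 106 to 132) and of 5 erythroid markers 1 (0 to 15.7 against 1.74 to 3.34).

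Mitochondrial RNA shares fell into a main body and a long shoulder, and the 158 barcodes were the far end of the shoulder. Of the 5768 barcodes with a hashtag call, 1834 lay between 1 and 2%, 1544 between 2 and 3%, and 191 between 4 and 5%. Numbers then rose again to 218 between 5 and 6%, and 436, 431, 318 and 235 lay between 6 and 8%, 8 and 10%, 10 and 12%, and 12 and 15%. At 15% or more there were 117 barcodes up to 20%, a further 37 up to 25% and 4 above that. No gap set the 15% barcodes apart from those just below it.

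**Figure D1:**
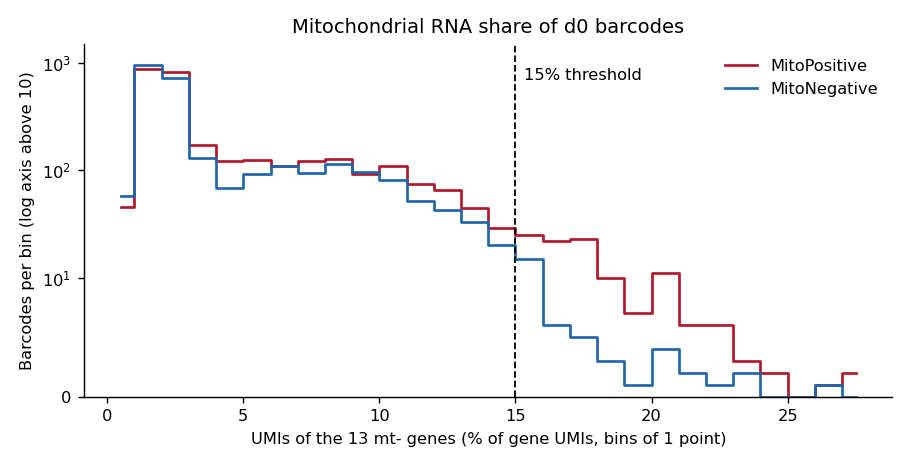
Number of d0 barcodes (vertical axis, logarithmic above 10) by the share of gene UMIs from the 13 mt- genes in bins of 1 percentage point (horizontal axis), for MitoPositive and MitoNegative barcodes; the vertical line marks 15%. Both arms peak between 1 and 3%, continue in a shoulder from 5% and reach 15% without a gap.

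The barcodes at 15% or more were shallow in nuclear RNA while their mitochondrial UMIs were not reduced. By hashtagged sample, the median barcode held 1217.0, 1297.5 and 1381.5 UMIs outside mt- genes in MitoPositive cells and 1167.0, 1001.5 and 1124.0 in MitoNegative cells of donors 1, 2 and 3, against 6796.0, 8179.0 and 8383.0 (MitoPositive) and 5741.0, 7225.0 and 7002.0 (MitoNegative) below 15%. The ranges did not overlap, and the ratio of medians averaged 0.167 ± 0.0218 (SD, n = 6). Genes detected per barcode stood at 0.331 ± 0.0295 times the level below 15%. Median mt- UMIs per barcode were 291.5, 299.0 and 294.0 in MitoPositive and 233.0, 202.0 and 230.0 in MitoNegative cells, against 159.0, 196.0 and 204.0 in MitoPositive and 140.0, 157.0 and 160.0 in MitoNegative barcodes below 15%. They were 1.53 ± 0.193 times as many, and higher in 6 of 6 samples. Both counts enter the share that chose the barcodes, so no test is attached.

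The hashtag signal on these barcodes stood near that of the others. Median UMIs of the top hashtag were 2759.0, 4349.0 and 1229.5 in MitoPositive and 2799.0, 1374.0 and 2238.0 in MitoNegative barcodes at 15% or more, against 3162.0, 4712.0 and 1032.0 in MitoPositive and 3349.0, 1598.0 and 2289.0 in MitoNegative barcodes below it. The value was lower in 5 of 6 samples, by 0.09 on the log2 scale on average, and the difference did not pass an exact two-sided sign-flip test over the 6 pairs (p = 0.28; the smallest possible is 0.03125). At a threshold of 20% (0.12), with at least 1000 genes (0.25) or against depth-matched barcodes (0.07) the mean difference turned to higher. Hashtag antibodies bind the cell surface, and their oligonucleotides are counted apart from gene RNA.

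The 13 mt- genes did not carry the high share evenly. The largest mt- gene was mt-Co1, a subunit of cytochrome c oxidase, at 26.8% ± 2.18 of mt- UMIs (24.0% to 29.9% by sample) at 15% or more against 34.5% ± 1.56 (32.9% to 37.3%) below it (SD, n = 6). The samples did not overlap. Its level over all gene UMIs was still 48581 ± 3673 CPM against 9019 ± 688, a ratio of 5.39, the next to lowest after that of mt-Nd6 (4.47). For mt-Nd1, a subunit of complex I, the share of mt- UMIs was 3.65% ± 0.173 against 3.05% ± 0.202, and its level over all gene UMIs was 6634 ± 375 CPM against 793 ± 44.0, a ratio of 8.36. Higher shares in 6 of 6 samples were also seen for mt-Atp6 and mt-Co3 (17.5% ± 0.318 against 14.6% ± 0.279, and 15.4% ± 1.08 against 13.8% ± 0.562), mt-Cytb of complex III (8.42% ± 0.884 against 6.80% ± 0.421), mt-Co2 (13.3% ± 0.445 against 12.3% ± 0.436) and mt-Nd2 (3.79% ± 0.365 against 3.20% ± 0.366). Like mt-Co1, the complex I gene mt-Nd5 held a lower share in 6 of 6 samples, 1.93% ± 0.227 against 2.43% ± 0.251, and mt-Nd6, the only coding gene on the light strand, in 5 of 6 (0.220% ± 0.0889 against 0.344% ± 0.0400). The other 4 genes (mt-Nd3, mt-Nd4l, mt-Nd4 and mt-Atp8) were higher in 2 to 5 of the 6 samples, with ratios of shares between 0.893 and 1.09. These are descriptions of genes the choice used.

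Barcodes at 15% or more were more frequent among MitoPositive cells in each donor. They were 3.55%, 4.49% and 3.57% of MitoPositive barcodes (36 of 1013, 44 of 981 and 38 of 1063) in donors 1, 2 and 3, against 1.55%, 1.20% and 1.64% of MitoNegative barcodes (15 of 966, 10 of 833 and 15 of 912). The arms did not overlap, and the 95% Wilson intervals of single samples, which cover counting error only, ran from 2.58% to 5.97% in MitoPositive and from 0.653% to 2.70% in MitoNegative samples. The mean difference was 2.41 percentage points, and an exact two-sided permutation test gave p = 0.1, the smallest that 3 samples against 3 allow. Paired by donor, the same difference had an exact sign-flip p of 0.25, again the smallest possible with 3 pairs. Under the map that gives hashtags 1 to 3 to MitoPositive cells, the difference was 1.06 percentage points, the arms overlapped, and p was 0.5 (exact permutation test).

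The arms were also compared at other thresholds. At 5% or more, 33.4% ± 3.71 of MitoPositive barcodes qualified against 28.4% ± 6.19 of MitoNegative barcodes, with overlapping samples (exact permutation p = 0.4). At 10% or more, the shares were 14.5% ± 1.21 against 9.85% ± 1.39, and at 20% or more they were 1.02% ± 0.315 against 0.368% ± 0.0431, without overlap at either threshold (SD, n = 3 each; exact permutation p = 0.1 for both). The ratio of MitoPositive to MitoNegative shares was 1.17 at 5%, 1.47 at 10%, 2.64 at 15% and 2.78 at 20%; the change of the ratio was not tested. Among barcodes with a Cd3 UMI, 3.53% ± 0.570 against 1.24% ± 0.298 reached 15%.

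Depth moved strongly with the share, and the arms differed within depth. The UMIs outside mt- genes that measure depth are part of the total in a barcode's mt- share, so a fall with depth is partly built in. With the donors pooled, 24 of 63 MitoPositive barcodes under 1000 UMIs outside mt- genes (38.1%) reached 15% against 15 of 75 MitoNegative ones. From 1000 to 1500 UMIs the shares were 17.6% of 313 against 6.21% of 306, from 1500 to 2000 they were 6.62% of 272 against 2.23% of 224, and from 2000 to 4000 they were 3.74% of 428 against 0.362% of 276. At 4000 UMIs or more, 5 of 1981 MitoPositive barcodes (0.252%) and 0 of 1830 MitoNegative barcodes reached it. With donors pooled, the share was lower in each deeper bin in both arms and higher in MitoPositive cells in each bin. In donor 1 neither held from 1500 to 2000 UMIs, where 1.80% of MitoPositive and 1.83% of MitoNegative barcodes reached 15%, and 3.57% of its MitoPositive barcodes did from 2000 to 4000 UMIs. By sample, barcodes with at least 2000 UMIs gave 0.875% ± 0.126 against 0.0461% ± 0.0799, and those under 2000 gave 15.8% ± 4.47 against 6.67% ± 1.09, in both cases without overlap (SD, n = 3 each; exact permutation p = 0.1).

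**Figure D2:**
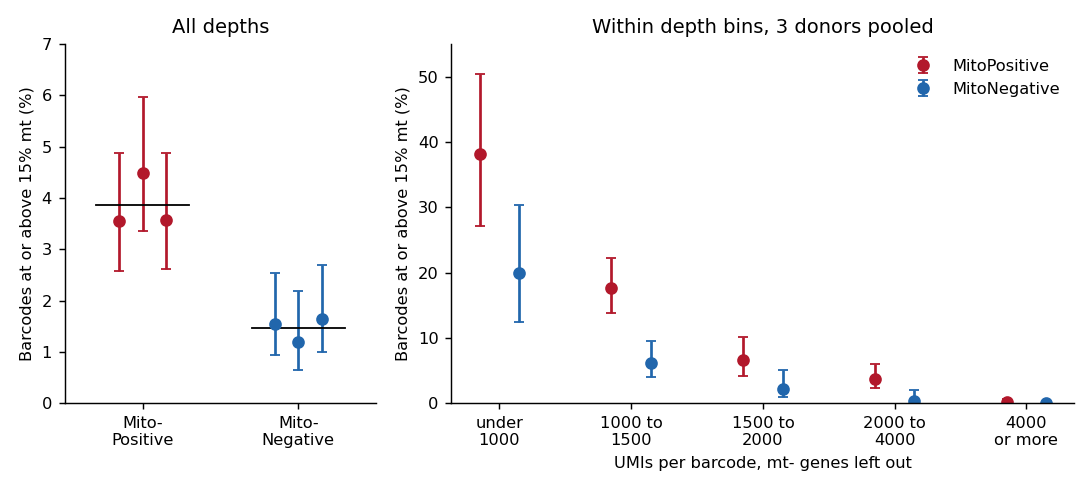
Percentage of d0 barcodes with 15% or more mt- UMIs. Left, each hashtagged sample with its 95% Wilson interval, MitoPositive before MitoNegative: the MitoPositive samples lie at 3.55% to 4.49% and the MitoNegative ones at 1.20% to 1.64%. Right, the same share with donors pooled in bins of UMIs per barcode without mt- genes (horizontal axis) with 95% Wilson intervals: it falls in both arms with depth and is higher for MitoPositive cells in each bin. These UMIs are part of the total in a barcode's mt- share, so the fall is partly built in.

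After 7 days in tumor-bearing mice 74 of 10868 barcodes reached 15% (39 in spleen and 35 in tumor). The share was below that at d0 in each spleen sample, whereas both tumor samples of donor 1 lay above their d0 values, the MitoNegative one on 1 barcode. In spleen they were 0.606%, 0.260% and 0% of MitoPositive barcodes and 0.637%, 0.161% and 0.357% of MitoNegative barcodes of donors 1, 2 and 3, so the arms overlapped (0.289% ± 0.304 against 0.385% ± 0.239; SD, n = 3 each; exact permutation p = 0.7). In tumor they were 6.52%, 1.29% and 1.32% of MitoPositive and 3.23%, 0% and 0% of MitoNegative barcodes (3.04% ± 3.01 against 1.08% ± 1.86; exact permutation p = 0.5). Several samples were too small to show a difference of the d0 size: the MitoPositive spleen sample of donor 3 held 50 barcodes, for which a count of 0 allows a share of up to 6.00%, and the MitoNegative tumor samples held 31, 85 and 116. The d0 and d7 cells also differ in library, and that cannot be told apart from time.

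The nuclear RNA of the 158 barcodes was poorer in messages of short, abundant, cytosolic genes and richer in RNA from long genes and long noncoding RNAs, and the shoulder as a whole shared this. Messages of cytosolic ribosomal proteins made up 10.4% ± 0.525 of UMIs outside mt- genes in the median barcode at 15% or more, against 23.1% ± 1.76 below it (SD over 6 samples; no overlap). Protein-coding genes spanning over 100 kb in the annotation made up 26.1% ± 0.654 against 15.5% ± 1.29, and long noncoding RNAs other than Malat1 made up 5.60% ± 0.275 against 3.15% ± 0.226. From low to high mt- share, in bins of 0 to 3%, 3 to 5%, 5 to 10%, 10 to 15%, and 15% or more, ribosomal protein messages stood at 26.9%, 15.6%, 6.85%, 8.96% and 10.4%. Genes over 100 kb stood at 12.6%, 21.6%, 29.4%, 27.8% and 26.1%. At 3 to 5% the samples lay far apart, from 6.14% to 25.4% for ribosomal protein messages and from 14.1% to 29.5% for genes over 100 kb. The turn in both was at 5 to 10%, and beyond it both moved part of the way back. Depth followed another course, at 8823, 5094, 1914, 1402 and 1198 UMIs outside mt- genes per median barcode, lower in each bin.

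Over the whole range Xist and the T cell identity genes moved in a single direction, and Malat1 did not. Xist, the noncoding RNA that coats the inactive X chromosome and stays in the nucleus, made up 0.0744%, 0.130%, 0.204%, 0.253% and 0.340% over the 5 bins. Malat1, a noncoding RNA of nuclear speckles, made up 1.96%, 2.30%, 2.40%, 1.92% and 1.43%, with its highest value at 5 to 10% and its lowest at 15% or more. The T cell identity genes made up 1.79%, 1.78%, 1.74%, 1.60% and 1.49%. In barcodes thinned to 500 UMIs, 411 ± 4.14 genes were found at 15% or more against 383 ± 5.85 below it (SD, n = 6), and 407 ± 2.91 in depth-matched barcodes, so at equal depth the RNA was spread over slightly more genes.

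**Figure D3:**
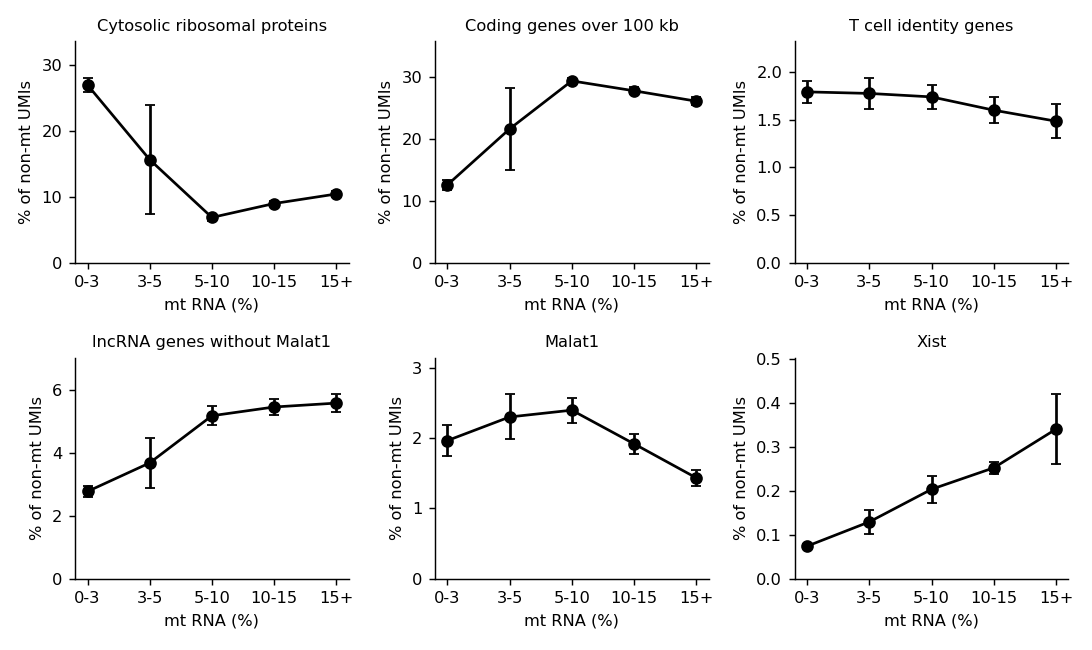
Share of UMIs outside mt- genes (vertical axes, percent) taken by groups of RNA in 5 bins of mt- share (horizontal axes, low to high); points are the mean of the medians of 6 hashtagged samples and bars are the SD. Ribosomal protein messages are lowest and genes over 100 kb highest at 5 to 10%, while Xist continues upward to 0.340% at 15% or more.

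For single genes, UMIs were summed per hashtagged sample at 15% or more and below it, and the 12 sums were compared with edgeR's quasi-likelihood test with the hashtagged sample as a block and Benjamini-Hochberg adjustment over all 9751 genes tested. How the sums are scaled set the balance of calls. With TMM factors 282 genes were higher (2.89%) and 1583 lower (16.2%), and the median gene stood at -0.40 on the log2 scale. With DESeq2's size factors 523 were higher (5.36%) and 1276 lower (13.1%), with a median of -0.21. With scaling by summed UMIs alone 1812 were higher (18.6%) and 604 lower (6.19%), with a median of 0.35. The calls described are therefore those of genes that passed an adjusted p of 0.05 in the same direction under all 3 scalings. These were 282 higher (2.89% of the genes tested) and 604 lower (6.19%), and higher and lower below refer to them unless another comparison is named. Log2 values by summed UMIs and by TMM are given side by side, and a list's median is to be read against the medians of all genes above.

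The higher genes differed from the lower ones in annotated length and type. Of the 274 higher genes found in the annotation 35.0% were noncoding, and the coding ones spanned a median of 60.9 kb, with 30.3% over 100 kb. Of the 600 annotated lower genes 1.67% were noncoding, and the coding ones spanned a median of 5.84 kb, with 1.03% over 100 kb and 70.6% under 10 kb. Over all genes tested 6.32% were noncoding, with a coding median of 25.3 kb, 12.2% over 100 kb and 21.9% under 10 kb. Of the 604 lower genes 86 had at most 3 UMIs in the 158 barcodes; the other 518 gave a coding median of 5.79 kb.

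The 12 strongest rises by the naming rule were 11 noncoding RNAs and Oprm1, and each of the noncoding ones lies across a coding gene or across Xist. Tsix, the noncoding RNA transcribed across Xist on the opposite strand (X:103431517-103484957, plus strand, mm10; Xist at X:103460366-103483254, minus strand), had 1135, 1167 and 1291 CPM in MitoPositive and 467, 607 and 785 in MitoNegative barcodes at 15% or more, against 189, 179 and 159.5 in MitoPositive and 184, 138 and 176 in MitoNegative barcodes below it. The classes did not overlap, and its log2 difference was 2.54 ± 0.17 (SE) by summed UMIs and 1.72 ± 0.19 by TMM (edgeR quasi-likelihood, adjusted p = 1.6e-17). The MitoPositive samples lay above all MitoNegative ones within the class at 15% or more; among those barcodes Tsix was not called between the arms. Xist, from the list of nuclear-retained RNAs, had 4354, 3741 and 4440.3 CPM in MitoPositive and 2450.4, 3539 and 2877 in MitoNegative barcodes, against 1046, 1063 and 967 in MitoPositive and 948, 861 and 978 in MitoNegative barcodes below 15% (log2 1.88 ± 0.12 by summed UMIs and 1.05 ± 0.13 by TMM; adjusted p = 2.38e-13 by edgeR with TMM). All 6 values at 15% or more lay above all 6 below it. Whether the authors' counting used strand is not given in the sources used here, so reads of Xist and Tsix may not be told apart.

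The opioid receptor gene Oprm1 (10:6758506-7038198, plus strand), which overlaps Ipcef1 on the other strand (10:6885796-7052478), had 1396, 1224 and 1354 CPM in MitoPositive and 1984, 2831 and 732 in MitoNegative barcodes at 15% or more, against 329.8, 267 and 227 in MitoPositive and 391, 339 and 354 in MitoNegative barcodes below it. The classes did not overlap (log2 2.27 ± 0.15 by summed UMIs and 1.44 ± 0.17 by TMM; edgeR adjusted p = 1.86e-16). With the use of strand in the counting not given, reads of Oprm1 and Ipcef1 may not be told apart where they overlap. The other 10 were Gm36975, Gm15283, Gm46367, Gm17106, Gm32036, 1600010M07Rik, Gm2245, Gm44686, 5330438D12Rik and Gm48765. Among the coding genes they overlap are Rabgap1l for Gm36975, Hif1a for Gm15283, Numb for Gm46367, Elmo1 for Gm32036, Fyb for Gm2245 and Cnot2 for 5330438D12Rik. For Gm15283 the level averaged 449.7 ± 141 CPM at 15% or more and 81.4 ± 9.74 below it (SD, n = 6), and for Gm2245 it averaged 436 (316 to 520.4 by sample) and 93.6 (68.1 to 114). By TMM the 10 rises ranged from 1.41 (Gm48765) to 1.71 (Gm36975) on the log2 scale. At 20% 8 of the 12 rises were not called, and without MitoPositive replicate 2 the Gm48765 call was lost (edgeR adjusted p = 0.0528). Against barcodes from 5 to below 15%, 11 of the 12 were not called, Oprm1 among them (log2 0.29 by TMM, edgeR adjusted p = 0.295). Against depth-matched barcodes, where not all of the 12 could be tested, 6 were not called, again with Oprm1 (0.36, edgeR adjusted p = 0.45). Most of these rises were thus not particular to barcodes at 15% or more.

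Among 6 nuclear-retained RNAs tested, Xist and Snhg14 were higher and Malat1 was lower. The Snhg14 call was lost without MitoPositive replicate 2 (log2 1.30 by TMM, edgeR adjusted p = 0.249), at 20%, with at least 1000 genes and with samples of at least 20 barcodes. At 20%, where the median gene stood at -1.06, Xist was not called either (log2 0.57, edgeR adjusted p = 0.132). Malat1 (19:5795690-5802672, minus strand) had 13583, 16808 and 16942 CPM in MitoPositive and 16978, 16989 and 13811 in MitoNegative barcodes at 15% or more, against 19431, 18582 and 15973 in MitoPositive and 22642, 21746 and 21287 in MitoNegative barcodes below it. The classes overlapped only through the MitoPositive sample of donor 3 below 15%. The log2 difference was -0.31 ± 0.09 by summed UMIs (edgeR adjusted p = 0.00384) and -1.17 ± 0.10 by TMM. For Neat1 the log2 difference was 0.17 by summed UMIs and -0.60 by TMM, neither past the threshold. Of 4 annotations that overlap ribosomal RNA repeats, Gm42418 (6207 ± 912 CPM against 2536 ± 285) and Gm26917 (556 ± 149 against 151 ± 13.5) were higher, and Lars2 and AY036118 were not called.

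Nearly all messages of the cytosolic ribosome were lower. Of 81 genes of cytosolic ribosomal proteins tested, 78 were lower and 0 higher, with a median log2 difference of -1.44 by summed UMIs and -2.24 by TMM, that is 1.79 and 1.84 below the median of all genes. The remaining 3 were Rps21, Rps27l and Rpl7l1. Their summed level was 97552 ± 10064 CPM at 15% or more and 246774 ± 11346 below it (SD, n = 6). Rps10, a protein of the small subunit, had 1469.9, 1392 and 1181 CPM in MitoPositive and 1634, 1820.2 and 1099 in MitoNegative barcodes at 15% or more, against 4479, 4535 and 4796 in MitoPositive and 4279, 4565 and 4457 in MitoNegative barcodes below it (log2 -1.70 ± 0.13 by summed UMIs; edgeR adjusted p = 6.67e-39). No sample at 15% or more came near the lowest sample below it. Rpl12, Rpl29 and Rpl38 of the large subunit gave -1.78, -1.78 and -1.71 by summed UMIs. Ribosomal protein genes have many near-identical pseudogenes, and the counting may have divided their reads.

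All 16 genes of the cytoskeleton and of small abundant cytosolic messages were lower as well (median -1.41 by summed UMIs and -2.19 by TMM). Actb, cytoplasmic actin, had 1302, 1617 and 1212 CPM in MitoPositive and 1050.2, 2022 and 1569 in MitoNegative barcodes at 15% or more, against 4997, 5246 and 5963 in MitoPositive and 3961, 4377 and 4546 in MitoNegative barcodes below it, again without overlap (log2 -1.81 ± 0.13 by summed UMIs; edgeR adjusted p = 8.44e-44). Actg1, the other cytoplasmic actin, averaged 288 (175 to 492 by sample) against 1294 (1009 to 1704). The actin-binding Pfn1 averaged 479 ± 128 against 1497 ± 179.5, and Tpt1, translationally controlled tumor protein, 1936 ± 246 against 6062 ± 309 CPM (SD, n = 6).

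**Figure D4:**
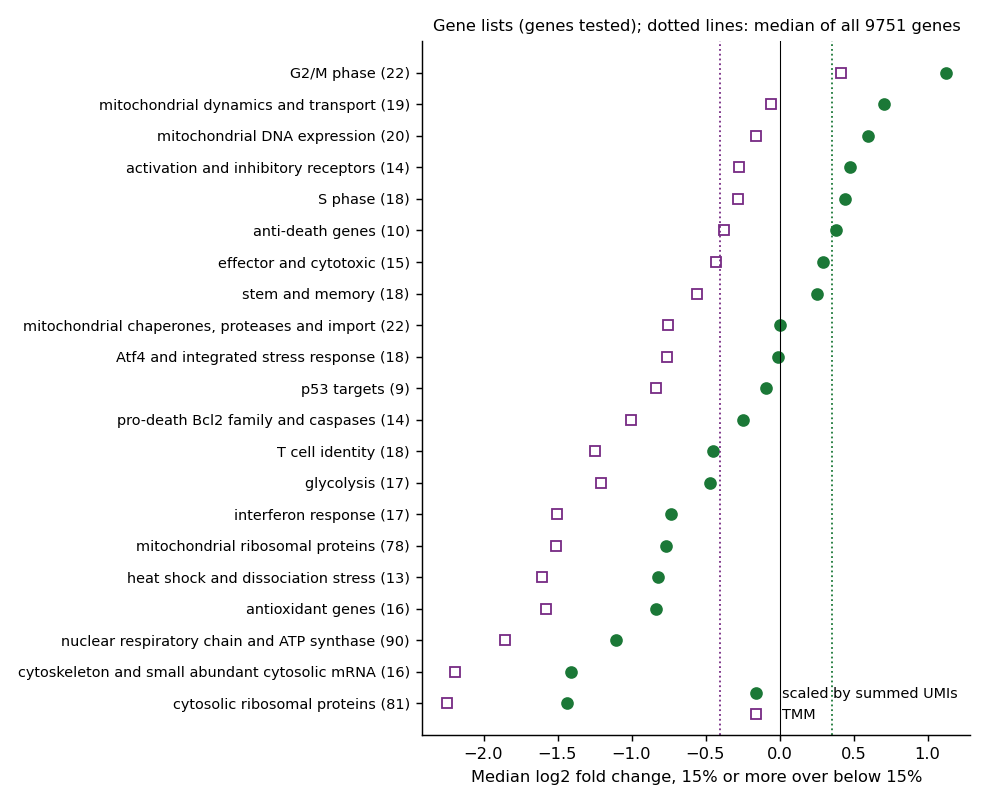
Median log2 difference of each gene list, 15% or more over below 15% (horizontal axis), with the number of genes tested in brackets; filled circles are scaled by summed UMIs and open squares by TMM, and dotted lines mark the medians of all genes, 0.35 and -0.40. Cytosolic ribosomal proteins and cytoskeletal genes lie farthest to the left and G2/M genes at the right.

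Set against all barcodes below 15%, nuclear genes for mitochondria did not follow the mt- genes. Of 90 nuclear genes of the respiratory chain and ATP synthase tested, 51 were lower and 1, the complex I assembly factor Ndufaf2 (log2 1.77 by summed UMIs and 0.99 by TMM), was higher; the list's median was -1.10 by summed UMIs and -1.85 by TMM. Their summed level was 8941 ± 597 CPM against 16653 ± 976 (SD, n = 6; 7810 to 9508 against 15306 to 18303). The samples did not overlap. Uqcr10 of complex III had 37.2, 42.2 and 31.5 CPM in MitoPositive and 58.3, 0 and 0 in MitoNegative barcodes at 15% or more, against 166, 188 and 195 in MitoPositive and 158, 175 and 171 in MitoNegative barcodes below it (log2 -2.40 ± 0.44 by summed UMIs; edgeR adjusted p = 1e-06). It rested on 8 UMIs at 15% or more. Ndufb6 of complex I rested on 3 UMIs (8.07 ± 8.96 against 59.1 ± 6.39 CPM), and Ndufaf8, a complex I assembly factor, had none. Compared with barcodes from 5 to below 15%, 42 of the 52 list genes tested stood above 0 on the log2 scale (median 0.31 by TMM). There 1 was called higher and 0 lower by edgeR. The list's share of UMIs outside mt- genes was 1.74% at 0 to 3%. At 5 to 10%, 10 to 15% and 15% or more it was 0.665%, 0.781% and 0.917%.

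Of 78 mitochondrial ribosomal protein genes 9 were lower and 0 higher (median -0.77 by summed UMIs and -1.51 by TMM, and -0.71 by summed UMIs with genes at 0 UMIs set to their bound), Mrpl30 among them (34.6 ± 38.0 against 166 ± 12.5 CPM, 5 UMIs at 15% or more). Of 22 mitochondrial chaperone, protease and import genes 3 were lower, the chaperonin Hspe1 and the import receptors Tomm20 and Tomm22, and of 19 genes of mitochondrial dynamics and transport 1, Fis1. Of all genes tested 6.19% were lower by the same rule, and 1 of 19 lies near that share. None of 20 genes for the replication, transcription and translation of mitochondrial DNA was called in either direction under all 3 scalings; with TMM alone 2 were lower, by summed UMIs alone 2 were higher (Polg and Fastkd2), and their summed level was 678 ± 179 CPM against 508 ± 16.7 (SD, n = 6).

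The T cell programme was present, at lower levels for several abundant receptor messages. Of 18 T cell identity genes 10 were lower and 0 higher (median -0.45 by summed UMIs and -1.24 by TMM). Cd3d had 726, 605 and 583 CPM in MitoPositive and 700.1, 708 and 837 in MitoNegative barcodes at 15% or more, against 1294, 1304 and 1343 in MitoPositive and 1341, 1344 and 1318 in MitoNegative barcodes below it (log2 -0.97 ± 0.16 by summed UMIs; edgeR adjusted p = 2.11e-08). The classes did not overlap. The adaptor Lat averaged 121 ± 19.4 against 261 ± 21.8, the surface protein Thy1 249.6 ± 55.4 against 457 ± 14.0, and the kinase Zap70 24.8 ± 40.8 against 71.1 ± 4.47 CPM, the last on 5 UMIs. Of 15 effector and cytotoxicity genes 5 were lower (Ccl5, Nkg7, Id2, Lgals1 and S100a4), and the chemokine Ccl5 averaged 173 ± 145 against 538 ± 101. Of 18 stem and memory genes 3 were lower (Tcf7, Klf2 and Id3), and of 17 interferon response genes 5 (Ifit1, Gbp2, Igtp, Ifi27l2a and Zbp1). The TMM fit by itself called 8 stem and memory genes lower, and the fit by summed UMIs called 5 higher. The median of that list was 0.25 by summed UMIs and -0.56 by TMM. Its summed level was 10387 ± 2356 CPM at 15% or more against 7320 ± 1161 below it (SD, n = 6). None of the 14 activation and inhibitory receptor genes was called under all 3 scalings; with TMM alone 2 were lower, and by summed UMIs alone 4 were higher (Tox, Cd44, Cd69 and Irf4).

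Genes of cell death, p53 and the Atf4 response gave 0 or 1 call per list under all 3 scalings. Of all genes tested 2.89% were higher and 6.19% lower by the same rule, so 0 or 1 call in lists this short lies near that share. Heat shock and antioxidant genes gave more. Of 14 pro-death Bcl2 family and caspase genes 1 was lower, the pore-forming Bax (74.5 ± 85.9 against 136 ± 15.6 CPM, 13 UMIs at 15% or more), and 0 were higher. Of 10 anti-death genes and 9 p53 targets none was called under all 3 scalings, and TMM alone called 1 and 3 of them lower, whereas summed UMIs alone called 2 anti-death genes, Bcl2 and Birc2, higher; for Mcl1, an anti-death Bcl2 relative, the level was 168 ± 56.5 against 243 ± 14.0. Of 18 genes of the Atf4 and integrated stress response 1 was higher, the amino acid transporter Slc7a5 (35.4 ± 35.6 against 4.90 ± 1.15 CPM, 11 UMIs), and 0 lower. The Slc7a5 call was lost without MitoPositive replicate 3 (log2 1.79 by TMM, edgeR adjusted p = 0.118) and at 20% (adjusted p = 0.169). Of 13 heat shock and dissociation stress genes 5 were lower (Jund, Zfp36, Hspa8, Hsp90ab1 and Dnaja1), and the chaperone Hspa8 averaged 336 ± 213 against 840.4 ± 94.2. Of 16 antioxidant genes 7 were lower and 0 higher, and of 17 glycolysis genes 4 were lower (Gpi1, Gapdh, Pkm and Ldha); Gapdh averaged 189 ± 55.6 against 671 ± 99.7.

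The 12 strongest falls by the naming rule were all genes with 0 to 2 UMIs in the 158 barcodes. Prdx3, the mitochondrial peroxiredoxin, Ndufaf8, the m6A reader Ythdf1, Xlr4b, Card19 and Siva1 had 0 UMIs, so that by a floor of 3 counts over the class they were at least 3.32, 3.21, 2.37, 2.12, 2.10 and 2.06-fold lower than below 15%. The interferon-induced Ifitm1 had 1 UMI (14.7-fold lower, counting interval 2.64 to 583), and the glutathione peroxidase Gpx1 had 2 (9.66-fold lower, interval 2.67 to 79.8). The histone gene H2afx, the RNA polymerase subunit gene Polr2i, Rgs19 and Gemin7 had 1 UMI each. At this depth such falls are bounds rather than sizes.

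G2/M genes were the coding list with the highest median. Of 22 G2/M genes 5 were higher (Mki67, Cenpf, Cenpe, Bub1 and Kif11) and 1 lower (Hmgb2), with a median of 1.12 by summed UMIs and 0.41 by TMM, and of 18 S phase genes 2 were higher (Clspn and Pola1) and 0 lower, with a median of 0.44 by summed UMIs and -0.28 by TMM. The Bub1 call was lost without any 1 of the MitoPositive replicates (edgeR with TMM, adjusted p = 0.0653 to 0.093), at a threshold of 10% and with no replicate block. DESeq2 left Mki67 (adjusted p = 0.116) and Pola1 (adjusted p = 0.0551) uncalled. At 20% Mki67 (0.88 on the log2 scale by TMM) and Pola1 (1.37) were not called by edgeR. Mki67, a coat protein of mitotic chromosomes, had 354, 478 and 598 CPM in MitoPositive and 0, 0 and 0 in MitoNegative barcodes at 15% or more, against 63.4, 87.4 and 88.3 in MitoPositive and 20.6, 21.8 and 35.2 in MitoNegative barcodes below it (log2 2.37 ± 0.26 by summed UMIs; edgeR adjusted p = 1.03e-17). The 3 MitoPositive samples lay above all samples below 15%. A count of 0 over the 40 MitoNegative barcodes allows up to 65.0 CPM of Mki67 by the floor of 3 counts, which is above the MitoNegative samples below 15%. Pola1, a subunit of DNA polymerase alpha, had 335, 295 and 409 CPM in MitoPositive and 0, 0 and 0 in MitoNegative barcodes, against 39.7, 37.5 and 43.8 in MitoPositive and 20.8, 24.4 and 25.4 in MitoNegative barcodes below 15%. The centromere protein gene Cenpf had 223, 408 and 362 against 58.3, 0 and 0 in MitoPositive and MitoNegative barcodes at 15% or more. Hmgb2, a chromatin protein, was lower at 483 ± 219 against 837 ± 269 CPM.

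**Figure D5:**
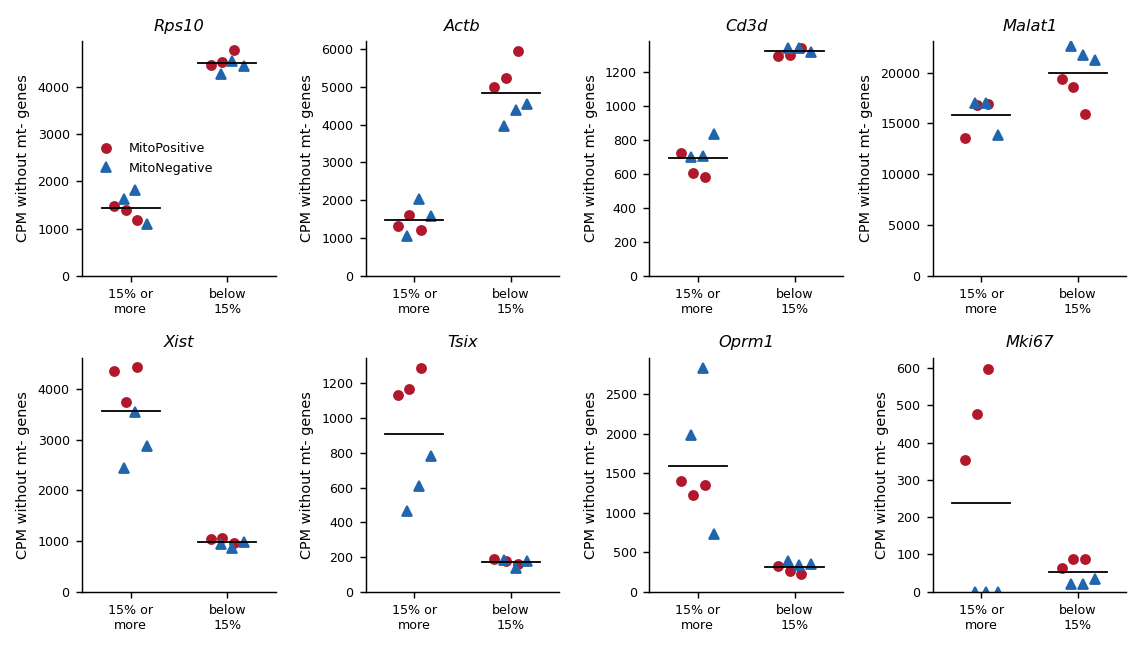
CPM outside mt- genes (vertical axes) of 8 genes in each hashtagged sample, at 15% or more (left in each panel) and below 15% (right); circles are MitoPositive and triangles MitoNegative samples, and lines are means of 6. Rps10, Actb and Cd3d lie lower and Xist, Tsix and Oprm1 higher at 15% or more without overlap, Malat1 overlaps, and Mki67 is higher in MitoPositive and 0 in MitoNegative samples.

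Among the 158 barcodes themselves 5 genes were called between the arms, the cell cycle genes Mki67, Pola1 and Top2a among them. Each of the 5 entered the test through the MitoPositive sums alone. With the 6 sums at 15% or more, edgeR's quasi-likelihood test with Benjamini-Hochberg adjustment over 769 genes called 5 higher in MitoPositive cells (0.65%) and 0 lower, with 66 genes at an unadjusted p under 0.05. The genes called were Mki67 (edgeR adjusted p = 0.000294) and Pola1 (0.00425 by the same test), with 0 UMIs in MitoNegative cells, and Lockd (0.0155), Itgb1 (0.02) and Top2a (0.0476). The count filter was set by arm and lets in a gene that is high in 1 arm only. All 5 genes called passed it through the MitoPositive sums alone, so their adjusted p-values are given as a description. By a floor of 3 counts over the 40 MitoNegative barcodes, Mki67 was at least 7.43-fold and Pola1 at least 5.31-fold higher. Lockd, a noncoding RNA, had 354, 534 and 504 CPM in MitoPositive against 0, 101 and 105 in MitoNegative barcodes, the integrin Itgb1 688, 478 and 535 against 175, 101 and 105, and the topoisomerase Top2a 614, 422 and 441 against 175, 0 and 105. The arms did not overlap in any of the 5. No call was left under the hashtag map 1 to 3 against 4 to 6, without MitoPositive replicate 1 or without MitoPositive replicate 2; with donor as a block 4 genes were called. Leaving out either of those replicates also left fewer genes to test, 353 and 355. In the test of whether the difference between the arms itself differed between the classes, 0 of 10396 genes were higher and 1 was lower (0.00962%), the granzyme gene Gzma, and 574 had an unadjusted p under 0.05; its values, which rest on 1 barcode, stand in the closing section.

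At least 1 Mki67 UMI was found in 21 of 118 MitoPositive barcodes (17.8%) and in 0 of 40 MitoNegative barcodes, which allows a share of up to 7.5% of barcodes with a UMI; the median depths were 1283.0 and 1102.0 UMIs. Below 15% the shares were 11.2% and 4.98% at median depths of 7754.0 and 6681.0 UMIs, and in depth-matched barcodes 4.24% and 5.00%. Thinned to 500 UMIs, 8.86% of the 158 barcodes had a Mki67 UMI against 1.23% of barcodes below 15% and 0.633% of depth-matched ones. The 21 barcodes were deeper than the rest, with a median of 2283.0 UMIs against 1183.0, and 13 of them were among the 22 with 2000 UMIs or more. Their median mt- share was 17.9% against 17.3% in barcodes without Mki67, and ribosomal protein messages made up 7.70% of their UMIs against 10.6%. Of the 22 deep barcodes 21 were MitoPositive.

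Against other shallow barcodes few genes were called. When each of the 158 was matched to the barcode of its own sample nearest in UMIs outside mt- genes below 15%, whose median mt- share was 10.2%, 713 genes could be tested and 7 were called by edgeR (0.982%), 4 higher (0.561%) and 3 lower (0.421%), with 77 at an unadjusted p under 0.05. Tsix was higher (909 ± 337 against 399 ± 193 CPM; log2 1.19 ± 0.21, edgeR adjusted p = 6.07e-05), as were Xist (3567 ± 792 against 2383 ± 299; log2 0.69 ± 0.14, adjusted p = 0.000735), the cytochrome c oxidase subunit Cox6c (525 ± 145 against 213 ± 163; log2 1.16 ± 0.28) and Rps15 (1269 ± 265 against 765 ± 223; log2 0.71 ± 0.18). Malat1 was lower (15852 ± 1672 against 21950.5 ± 2633; log2 -0.45 ± 0.09, edgeR adjusted p = 0.000735), as were the phosphatase Ppm1h (810.5 ± 268 against 1497 ± 505) and the transcription factor Foxp1 (3553 ± 1113 against 4862 ± 870.4). These 7 were all the calls and were named after their values were seen. Ribosomal protein messages made up 9.73% ± 0.606 and genes over 100 kb 27.5% ± 0.765 of UMIs in the matched barcodes (SD, n = 6), against which the 10.4% and 26.1% at 15% or more stand close, and Rps10 differed by -0.47 ± 0.16 on the log2 scale (adjusted p = 0.143).

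Set against the 1638 barcodes of the shoulder, from 5 to below 15%, 65 of 3759 genes were called by edgeR (1.73%), 30 higher (0.798%) and 35 lower (0.931%), with 424 at an unadjusted p under 0.05. Here 14 of 80 ribosomal protein genes were higher and 0 lower (median 0.34), led by Rps15 (log2 0.79 ± 0.13, adjusted p = 2.61e-06), which is the opposite direction to the comparison with all barcodes below 15%. Of 6 G2/M genes tested 4 were higher, Mki67 (1.70 ± 0.28), Cenpf (1.76 ± 0.30), Top2a (1.15 ± 0.24) and Nusap1, and of S phase genes Pola1 (1.65 ± 0.29) was the one tested and was higher. Malat1 was lower by -0.82 ± 0.08 (15852 ± 1672 against 26279.7 ± 1973 CPM; adjusted p = 2.34e-22), and Xist and Tsix were higher by 0.47 ± 0.10 and 0.65 ± 0.14. Of 18 T cell identity genes 3 were lower, among them Cd247 and Cd8b1 (-0.59 and -0.48), and of 12 stem and memory genes 2, Lef1 and Foxp1 (-0.62 and -0.59). Cd3d stood level (0.00 ± 0.16). Set beside the comparison with all barcodes below 15%, which shares the same 158 barcodes, Malat1, Xist and Tsix kept their direction and the called ribosomal protein genes did not.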

How the data were processed

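Droplet single-cell RNA-seq of mouse CD8 T cells was read from the deposited d0 matrix and, for shares at d7, from 3 further matrices, which hold UMI counts per gene and hashtag written by Cell Ranger 7.0.0, per the file headers. These counts were deposited without normalisation or division by hashtag, and mm10 (GRCm38) and Seurat 4.0.5 are named per the submitters' processing notes. Annotated spans and types came from GENCODE on the same build, which held 99.8% of the gene IDs. No column of per-sample values was left out (0).

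Barcodes were filtered and assigned as the opening of the results states; the hashtag limits leave the 6 samples as replicates, 3 donor mice in each arm. The members and the gene lists were chosen with earlier results of these data known. UMIs were summed per hashtagged sample and class without mt- genes (9889 to 71098 UMIs per sum at 15% or more, 5382892 to 10017543 below it) and tested with edgeR 4.0.16 (filterByExpr, glmQLFit, TMM; R 4.3.3), with DESeq2 1.42.0 as an alternative. In sums simulated at these depths with known changes, TMM moved the unchanged genes downward, and DESeq2 size factors and summed totals moved them far less. The simulated classes shared 1 composition apart from a random set of changed genes, without the large fall of ribosomal protein messages seen here. It therefore cannot show which scaling is right for these data, and calls had to pass under all 3 scalings. Shares were compared with exact permutation tests (scipy 1.17.1). Intervals cover counting error only. p-values measure the spread between hashtagged samples in 1 library.

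Genes were named by rule: adjusted p under 0.05, mean log2 CPM of at least 5, the same direction in all 6 samples, and the 12 largest rises and falls; up to 4 genes with the largest log2 difference per list; and, between arms, up to 6 genes per direction without overlap. Other genes, the called list members given by name alone, Tsix beside Xist, and the calls against matched and 5 to 15% barcodes were named after their values were seen. The values of 1 T cell identity gene are not reported here. Same-numbered samples come from the same donor mouse by the deposited hashtag list, so donor pairs them; deviations of same-donor sums correlated at -0.02, -0.01 and 0.05 over 769 genes at 15% or more, and at 0.33, 0.09 and 0.25 over 11423 genes below it.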

Additional observations from a re-analysis of the deposited data

Results flagged for a closer look

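The granzyme gene Gzma was singled out because the difference between the arms differed between the classes of barcodes. Its MitoPositive over MitoNegative log2 difference at 15% or more, minus that below 15%, was -3.87 ± 0.52 (SE; edgeR quasi-likelihood interaction, adjusted p = 1.52e-09 over 10396 genes). Gzma stood at 93.0, 98.5 and 63.0 CPM in MitoPositive and 175, 0 and 1360.2 CPM in MitoNegative barcodes at 15% or more, and at 196, 243 and 462 CPM in MitoPositive and 77.1, 68.0 and 155 CPM in MitoNegative barcodes below it. Of the 26 UMIs of the MitoNegative sample of donor 3 at 15% or more, 24 came from 1 barcode. Gzma was not called without that sample (log2 -1.96, edgeR adjusted p = 0.925), at 20% (-0.88), with no replicate block (-4.07, adjusted p = 0.108), with DESeq2 (-3.55) or with hashtags 1 to 3 against 4 to 6 (-1.17).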

How the results depend on the processing

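The difference in the share of barcodes at 15% or more, MitoPositive minus MitoNegative, kept its direction under each alternative run, at 2.10 to 2.56 percentage points when 1 sample was left out, and at 1.06 points (exact p = 0.5) with hashtags 1 to 3 against 4 to 6; the replicate block (pairing by donor) gave 2.41 points. Genes called against barcodes below 15% numbered 1865 with TMM, and 4792 (2184 higher, 2608 lower) at 10%, 1085 (29 higher) at 20%, 7 (4 higher, 3 lower) depth-matched, 65 (30 higher, 35 lower) against 5 to 15% and 994 (736 lower) with DESeq2. Higher genes were 181 with at least 1000 genes, 523 with DESeq2 size factors and 1812 by summed UMIs, which left 604 lower. Leaving out 1 sample gave 1255 to 1694 calls, 137 to 261 higher and 1106 to 1433 lower; with no replicate block 2150 were called. Between the arms at 15% or more, 5 calls became 63 at 10%, 1 at 20%, 11 with at least 200 genes, 3 with at least 1000, 8 at a hashtag margin of 2, 0 with hashtags 1 to 3 against 4 to 6, 1 with DESeq2, 23 with no count filter, 4 with the replicate block and 0 to 5 with 1 sample left out. The difference of the arm effect gave 3 genes at 10%, 2 at a margin of 2, 0 with hashtags 1 to 3 against 4 to 6 or DESeq2, and 0 to 1 with 1 sample left out; with no replicate block and at 20% it gave 1 gene each, higher and not Gzma. The alternative with at least 20 barcodes left only MitoPositive samples and was not run for these. Top hashtag UMIs differed by 0.12 at 20%, 0.25 with at least 1000 genes and 0.0696 depth-matched, and by -0.16 to -0.06 with 1 sample left out.

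Of single genes, these turned direction on the log2 scale. Depth-matched: Cd3d 0.0657, Hmgb2 0.74 and Gm42418 -0.14. Gm42418 gave -0.0360 at 20% and -0.14 with at least 1000 genes, and Neat1 0.15 at 10% and 0.17 by summed UMIs. Against 5 to 15%: Cd3d 0.0012, Rpl29 0.22, Rpl12 0.19, Rpl38 0.0482, Rps10 0.11, Mcl1 0.17, Hspa8 0.23, Gapdh 0.20, Ldha 0.15, Hmgb2 0.29, Ccl5 0.0806, Pfn1 0.10 and Tpt1 0.18. The causes were not tested. With 9889 to 71098 UMIs per sum at 15% or more, depth limits small differences and low genes.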

Other observations

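The 10 barcodes at 15% or more with at least 500 genes but no hashtag call carried 2 strong hashtags rather than none: their median top hashtag had 1637.5 UMIs and their median second hashtag 1199.0, and none had a top hashtag under 10 UMIs. Their median depth was 1581.0 UMIs outside mt- genes.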
